A study of Mus musculus with 10 samples.

Results

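The cornified envelope genes examined here are 47 gene symbols that build or accompany the outer shell of dead skin cells. They comprise the 21 Lce (late cornified envelope) genes, the 17 Sprr (small proline-rich) genes, Lor, Ivl, Flg, Flg2, Rptn, Krtdap, Sbsn, Lgals7 and Calml3. They were picked by symbol, by a rule that names no measured value, and correspond to 53 of the 47643 gene identifiers in the tables, because Flg is listed under 7 identifiers. RNA was sequenced from 10 mouse melanomas. In 5 of them, called Fes KO, the host carried Tyr::CreERT2/+, BRafV600E/+ and Fes-/-. The other 5, called Fes WT, had the same alleles with Fes+/+, so both groups carry the activated Braf allele. Recombination is driven by Cre under the melanocyte promoter Tyr, and 4OH-Tamoxifen at 5 mM was put on the back skin. The samples are pieces of skin tumour and not sorted cells, and no label gives age, sex, strain or whether tumours came from separate mice, so the tests see only the variation among these tumours, which may be technical.

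When a keratinocyte leaves the basal layer of the epidermis it stops dividing, fills with keratin filaments and replaces its plasma membrane with a crosslinked protein shell, the cornified envelope. Transglutaminases join involucrin, loricrin, SPRR and LCE proteins to each other, and filaggrin, released from keratohyalin granules, packs the keratin filaments. Most of these genes lie together in the epidermal differentiation complex, and melanocytes are not known for using them. In skin their usual source is the epidermis and the hair follicle. In bulk RNA a lower share of keratinocytes and less RNA per keratinocyte cannot be told apart.

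Libraries held 13226783 to 16599120 counted reads, and levels are given as CPM, the reads of a gene scaled to a common library size with TMM factors. The targeted gene Fes, a cytoplasmic tyrosine kinase, was at 33.4, 30.6, 29.1, 57.4 and 42.3 CPM in Fes KO 1 to 5 and at 84.5, 74.4, 71.9, 72.6 and 102 CPM in Fes WT 1 to 5. The groups did not overlap, and Fes was lower in Fes KO by edgeR's estimate, at -1.06 on the log2 scale with SE 0.19, at an adjusted p of 0.08459. Sox10, a melanocyte lineage factor, was at 374 to 968 CPM in all 10 tumours, with its lowest level in Fes KO 2. Beside the tumour cells, 3 libraries held many keratinocyte reads. In Fes KO 2 the basal keratin Krt5 was at 1523 CPM and the hair keratin Krt71 at 4151 CPM. Fes WT 3 had 22.2 and 306 CPM of these, and also 3903 CPM of the skeletal muscle actin Acta1, while Fes WT 5 had 74.2 CPM of Krt5 and 0.152 CPM of Krt71. Fes KO 2 also held 478 CPM of Acta1, and it was the highest tumour for the pigment genes Dct, Tyrp1, Tyr and Mlana, at 311, 68, 48.8 and 26 CPM. Of the 7 melanocyte genes examined, 5 were highest in this tumour. Sox10 and Mitf were not, and Mitf peaked in Fes WT 1, with 47.5 CPM against 46.7 CPM for Fes KO 2. In the other 7 tumours Krt5 did not exceed 1.38 CPM and Krt71 did not exceed 1.05 CPM. The tests of the members are given with all tumours, without Fes KO 2 and without these 3 libraries, and the counts for other gene lists with all tumours only.

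A single tumour held nearly all of the cornified envelope RNA. Of 24214 reads counted to these genes over the 10 tumours, 93% (22527 reads) came from Fes KO 2, where they made up 0.147% of the library. Their summed level was 3.34, 1341, 6.71, 6.27 and 4.37 CPM in Fes KO 1 to 5. It was 7.11, 6.36, 52.3, 4.02 and 22.2 CPM in Fes WT 1 to 5. Fes KO 2 stood far above all others, Fes WT 3 and Fes WT 5 came next, and the 7 remaining tumours of both genotypes lay between 3.34 and 7.11 CPM. In those 7, Sbsn made up 50.5% to 93.9% of the members' reads, and without Sbsn the sum ran from 0.244 to 3.32 CPM. The log2 ratio of the group medians, Fes KO over Fes WT, was -0.18, and both medians come from tumours where Sbsn made up most of the reads. It was -1.19, -1.22 and -1.22 without Fes WT 1, 2 or 4, and it has no test.

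**Figure D1:**
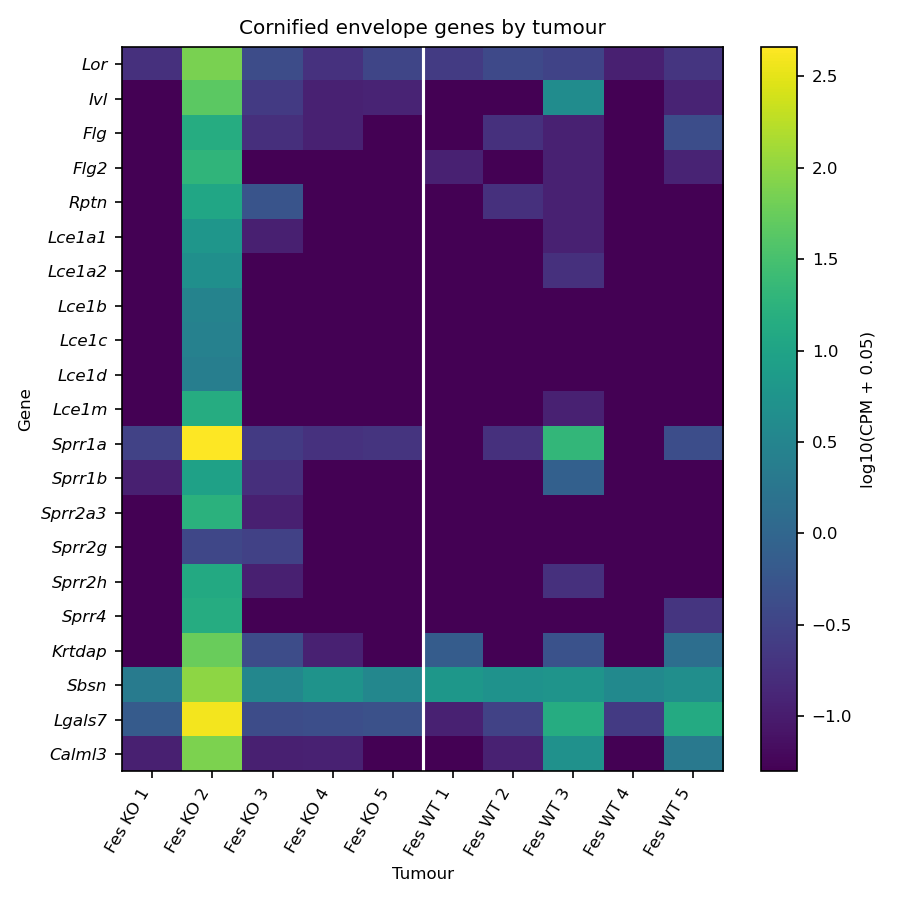
Levels of 21 cornified envelope genes (rows) in the 10 tumours (columns), as log10 of CPM plus 0.05, with Fes KO tumours left of the white line. The column of Fes KO 2 is bright for nearly every gene, and Fes WT 3 is bright for a few, such as Sprr1a at 21 CPM.

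Of the 53 identifiers, 44 had at least 1 read in some tumour and 9 had none in any. The 9 without reads were Sprr2a2, Sprr2c-ps, Sprr2i, Sprr2j-ps, Sprr3 and 4 of the extra Flg models. Of the 44, 41 were highest in Fes KO 2, and 15 were seen in Fes KO 2 alone. For the 17 members with at least 50 reads in all, Fes KO 2 held a median of 95.4% of the summed CPM, and between 71.3% and 99.6%. The exceptions to this order were Lce3b, Lce3d and Sprr2e, which were highest in Fes KO 3 with at most 2 reads each.

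The promoter sequences of 6 members, chosen by hand and not by a ranking, are shown. A link between their motifs and the tumours that held their RNA was not tested. Sprr1a and Ivl were seen in Fes KO 2 and Fes WT 3, Lor and Lce1m almost only in Fes KO 2, Lgals7 in all 3 keratinocyte-rich tumours, and Sbsn in every tumour. Each stretch is the 250 bases before the RefSeq start site, GRCm38.p6, 5′ to 3′ on the gene's strand. RefSeq starts can differ from the GENCODE annotation used for gene positions. There Lgals7 spans 28863853 to 28866284, so its stretch lies inside the gene, and the Sprr1a stretch runs slightly into its gene. Capitals mark TGANTCA, the site read by AP-1 factors, and TATAAA, the TATA box, each searched on both strands; the motifs share no bases here.
Sprr1a, chr3:92485882-92486131, minus strand: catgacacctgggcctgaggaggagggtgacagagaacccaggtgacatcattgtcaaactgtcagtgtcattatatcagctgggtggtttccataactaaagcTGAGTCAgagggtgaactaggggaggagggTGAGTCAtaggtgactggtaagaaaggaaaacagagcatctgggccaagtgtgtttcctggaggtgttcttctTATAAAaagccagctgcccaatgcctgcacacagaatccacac
Ivl, chr3:92573736-92573985, minus strand: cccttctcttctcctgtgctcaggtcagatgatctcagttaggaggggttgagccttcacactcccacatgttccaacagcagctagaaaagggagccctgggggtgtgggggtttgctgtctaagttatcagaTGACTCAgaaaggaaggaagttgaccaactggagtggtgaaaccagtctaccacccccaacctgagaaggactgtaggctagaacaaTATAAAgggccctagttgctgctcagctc
Lor, chr3:92083143-92083392, minus strand: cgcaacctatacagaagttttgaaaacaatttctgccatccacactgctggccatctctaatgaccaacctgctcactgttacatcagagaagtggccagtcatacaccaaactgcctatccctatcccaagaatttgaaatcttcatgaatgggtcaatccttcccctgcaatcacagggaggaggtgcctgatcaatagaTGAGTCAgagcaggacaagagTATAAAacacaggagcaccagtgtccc
Lce1m, chr3:93019062-93019311, minus strand: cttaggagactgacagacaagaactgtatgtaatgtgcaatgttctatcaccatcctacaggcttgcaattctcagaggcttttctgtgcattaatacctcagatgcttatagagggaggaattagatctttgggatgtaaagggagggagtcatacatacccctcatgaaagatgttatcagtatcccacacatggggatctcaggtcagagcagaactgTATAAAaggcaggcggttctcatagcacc
Lgals7, chr7:28864136-28864385, plus strand: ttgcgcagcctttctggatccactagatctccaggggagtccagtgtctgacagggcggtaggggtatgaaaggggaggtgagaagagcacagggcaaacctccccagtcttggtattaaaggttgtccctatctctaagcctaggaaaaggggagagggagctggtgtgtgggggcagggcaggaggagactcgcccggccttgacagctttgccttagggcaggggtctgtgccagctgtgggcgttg
Sbsn, chr7:30751221-30751470, plus strand: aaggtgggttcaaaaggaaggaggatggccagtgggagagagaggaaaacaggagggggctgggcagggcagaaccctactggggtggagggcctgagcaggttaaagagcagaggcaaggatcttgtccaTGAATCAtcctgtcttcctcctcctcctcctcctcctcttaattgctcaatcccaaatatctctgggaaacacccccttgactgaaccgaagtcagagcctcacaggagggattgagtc

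Promoters of 42 members were present in the RefSeq table, each with 250 bases before and 50 after the start. TGANTCA was found in 16 of the 42 (38.1%), against 7.81% of all 32851 promoters. It stood in 9 of 14 Sprr promoters and in 0 of 20 Lce promoters. Each Sprr2 promoter with the motif held a copy 193 to 198 bases before the start, so the share counts closely related promoters more than once. The Sprr1a promoter held 2 copies, starting 146 and 116 bases before the start, Ivl held 1 at 116 bases, Lor 1 at 48 bases, and Sbsn 2 at 119 and 6 bases, the latter running past the end of the stretch printed above. TATAAA was found in 45.2% of member promoters and 13.6% of all. A further motif, CACCC, the letters read by Krüppel-like factors, was in 50% of member promoters and 57.5% of all. A match is a run of letters and was not tested as a binding site.

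Loricrin and involucrin are the main glycine-rich and glutamine-rich envelope precursors. Lor (ENSMUSG00000043165, chromosome 3, 92080271 to 92083142, GRCm38) had 2, 1238, 6, 2 and 4 reads in Fes KO 1 to 5 and 3, 5, 4, 1 and 2 reads in Fes WT 1 to 5. It was thus at 73.7 CPM in Fes KO 2 and at a handful of reads in each of the other 9 tumours, whether or not they held keratinocyte reads. Ivl (ENSMUSG00000049128, chromosome 3, 92570902 to 92573735) had 0, 782, 3, 1 and 1 reads in Fes KO and 0, 0, 63, 0 and 1 in Fes WT. Unlike Lor, Ivl was clearly present in Fes WT 3, at 4.11 CPM, and close to 0 elsewhere.

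The SPRR proteins are short crosslinking bridges of the envelope, and Sprr1a is also known as a gene switched on in stressed and injured cells. Sprr1a (ENSMUSG00000050359, chromosome 3, 92483952 to 92485895) was the most abundant member, with 4, 7677, 3, 2 and 2 reads in Fes KO and 0, 2, 323, 0 and 5 in Fes WT. Sprr1b had 1, 152, 2, 0 and 0 reads in Fes KO and 0, 0, 12, 0 and 0 in Fes WT. Both were thus found in Fes KO 2 and Fes WT 3, and not in Fes WT 5 beyond 5 reads. Sprr4 had 238 reads in Fes KO 2, 2 in Fes WT 5 and none elsewhere, so it lacked the Fes WT 3 signal of Sprr1a.

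The Sprr2 subfamily was uneven. In Fes KO 2 Sprr2a3 had 281 reads and Sprr2h 216, while the other 11 Sprr2 genes had 0 to 6 reads each. No Sprr2 gene had reads in Fes WT 1, 2, 4 or 5 or in Fes KO 1, 4 or 5, and Sprr2h had 2 in Fes WT 3. Fes KO 3 was the other tumour with Sprr2 reads, 10 in all over 6 genes, of which 4 belonged to Sprr2g, annotated as a polymorphic pseudogene. Counts of Sprr2a1, Sprr2a2 and Sprr2a3 are uncertain, because 96.3%, 96.5% and 61.1% of their 50-base windows also occur in transcripts of other genes and the exons of Sprr2a1 and Sprr2a2 overlap. Sprr3, a gene of the mouth and oesophagus lining, had 0 reads in all tumours, which allows at most 3 reads per library.

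LCE proteins are added late, under the already formed envelope. The 14 Lce1 genes had 640 reads in Fes KO 2, from 3 for Lce1h to 239 for Lce1m (ENSMUSG00000027912, chromosome 3, 93017810 to 93019060). After Lce1m, at 14.2 CPM, came Lce1a1 at 6.01, Lce1a2 at 4.58, Lce1b at 2.86, Lce1c at 2.74 and Lce1d at 2.38 CPM. All 14 were detected in that tumour, but together they reached only 9 reads in Fes WT 3, 2 in Fes KO 3, 1 in Fes WT 2 and 0 in the remaining 6 tumours. The 6 Lce3 genes, known from wounded and psoriatic skin in humans, had only 17 reads in Fes KO 2. They had 5 reads in Fes KO 3, which is 30.4% of the Fes KO 2 level, where the Lce1 genes stood at 0.323% of it. Lce1 genes share a median of 21.7% of their windows with other genes and Lce3 genes 39.7%, so single-gene values within each subfamily are uncertain.

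Filaggrin, filaggrin-2 and repetin carry a calcium-binding S100 domain fused to long repeats. Flg, by its annotated model (ENSMUSG00000102439), had 0, 234, 2, 1 and 0 reads in Fes KO and 0, 2, 1, 0 and 5 in Fes WT. Flg2 had 332 reads in Fes KO 2, 1 each in Fes WT 1, 3 and 5, and none elsewhere. Neither was raised in Fes WT 3, the tumour that held Ivl and Sprr1a. Rptn, a gene with hair follicle expression, had 0, 181, 8, 0 and 0 reads in Fes KO and 0, 2, 1, 0 and 0 in Fes WT, so its next highest tumour was Fes KO 3. The 6 further Flg models have no position in the annotation used and held 14 reads in total.

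Outside the complex on chromosome 3, Lgals7 encodes galectin-7, a lectin of stratified epithelia, and Calml3 a calmodulin-like protein of epithelial cells. Lgals7 (ENSMUSG00000053522, chromosome 7, 28863853 to 28866284) had 10, 6624, 6, 6 and 6 reads in Fes KO and 1, 4, 216, 3 and 175 in Fes WT. Calml3 (ENSMUSG00000063130, chromosome 13, 3802896 to 3804316) had 1, 1277, 1, 1 and 0 reads in Fes KO and 0, 1, 76, 0 and 26 in Fes WT. These are the members that were raised in all 3 keratinocyte-rich tumours. Krtdap, a secreted protein of differentiating keratinocytes, had 0, 939, 6, 1 and 0 reads in Fes KO and 10, 0, 7, 0 and 17 in Fes WT. Lgals7 overlaps Gm10648 on the other strand, and the strand setting of the counting is not given in the sources used here.

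Sbsn, which encodes the secreted protein suprabasin (ENSMUSG00000046056, chromosome 7, 30751471 to 30756134), was the one member read in substance from every tumour. It had 35, 1647, 55, 82 and 46 reads in Fes KO 1 to 5 and 94, 82, 86, 62 and 58 in Fes WT 1 to 5. Apart from Fes KO 2 these lie within a narrow range in both groups, and Sbsn made up 50.5% to 93.9% of the members' reads in the 7 keratinocyte-poor tumours. Its level in Fes WT 3, with many keratinocyte reads, was no higher than in Fes WT 1. Part of the Sbsn gene overlaps Tmem147os on the same strand, and 9.58% of its windows occur in transcripts of other genes.

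Whether the groups differ was tested with edgeR's quasi-likelihood test over all genes, with Benjamini-Hochberg adjustment. Only Sbsn passed the filter on low counts, so 52 of 53 identifiers were not tested there. The mean Sbsn level was 22.5 ± 42.3 CPM over the Fes KO tumours and 5.03 ± 0.939 CPM over the Fes WT tumours (SD, n = 5 each), and the groups overlapped. For Sbsn edgeR gave a log2 fold change of 2.21 with SE 1.06, at an adjusted p of 0.5514. Over all genes, 26 of 14816 were called, or 0.175%, and their median log2 fold change was 0.01. Sbsn had an unadjusted p of 0.06375, and 0 members were called, beside 9.62% of all genes at an unadjusted p below 0.05. Limma-voom and limma on the deposited log2 values called 0 members, beside 0.776% and 0.169% of all genes, and DESeq2, which called 1.82%, gave no p for Sbsn. The groups did not overlap in 1.82% of the 14816 genes, and Sbsn was not one of them. Without Fes KO 2 the direction of Sbsn turned, to -0.50 with an adjusted p of 0.5038 in edgeR.

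With no filter, 44 members were tested in edgeR and 0 were called, beside 0.0632% of 28496 genes. DESeq2 called 1.05% of the same genes but gave no adjusted p for any of the 44, so it could call none. For 21 of the 44 it gave no p at all. At an unadjusted p below 0.05 edgeR had 11 of the 44 members, against 7.61% of all genes. Of these 11, DESeq2 gave a p for Lce6a alone, at 0.161. Lor had the smallest p in edgeR, at 0.009181, with an adjusted p of 0.5584. The fold changes of all 44 were positive, their median on the log2 scale being 3.61, against -0.01 for all genes. Members with no reads in any Fes WT tumour could only come out positive, and 15 of the 44 had reads in Fes KO 2 alone. The signs and the median are therefore no support for a difference between the groups. Without Fes KO 2, 29 members had reads, 13 above 0 and 16 below, with a median of -0.50 and 0 called, beside 0.1% of all genes. In none of the 44 did the groups separate, where 1.21% of all genes with a read had groups that do not overlap.

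Without Fes KO 2 the lowest unadjusted p values belonged to Calml3, Lgals7 and Sprr1a, at 0.02209, 0.0292 and 0.0392. Their log2 fold changes of -4.62, -3.58 and -4.52 stand beside their reads in Fes WT 3 and Fes WT 5 given above, with adjusted p values of 0.4259, 0.4485 and 0.4801 in edgeR. These 3 of 29 members stand beside 9.82% of all genes at that unadjusted p. Without all 3 keratinocyte-rich tumours 24 members had reads and 0 were called, beside 0.596% of all genes. Of those 24, 19 lay above 0 and 5 below, and their median was 1.60. Fes KO 3 had 21 members with reads and the other 6 of these tumours had 3 to 9, and the 54 reads of Fes KO 3 outside Sbsn spread over members with 8 or fewer each. Sbsn, with the most reads, was at -0.49 in that fit.

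**Figure D2:**
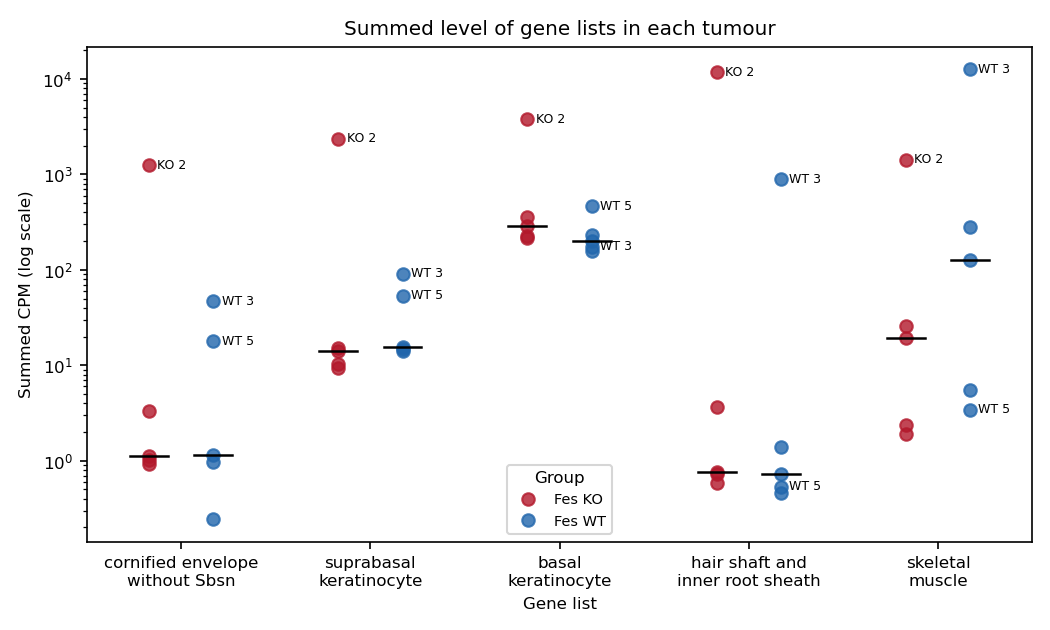
Summed CPM on a log axis of the cornified envelope genes without Sbsn and of 4 marker lists, 1 point per tumour, with bars at the group medians and the 3 keratinocyte-rich tumours labelled. Fes KO 2 is highest in each keratinocyte list, Fes WT 3 is raised in the hair list, both are raised in the muscle list, where Fes KO 2 reaches 1428 CPM and Fes WT 3 reaches 12570 CPM, and Fes WT 5 has only 0.532 CPM of hair genes.

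The 3 keratinocyte-rich tumours differed in kind as well as amount. Basal keratinocyte markers, which mark the dividing layer, summed to 3805 CPM in Fes KO 2, 174 in Fes WT 3 and 464 in Fes WT 5, and to 156 to 362 CPM in the other 7, where Itgb4 made up most of it. Hair shaft and inner root sheath keratins summed to 11762, 888 and 0.532 CPM in the same order, with 0.456 to 3.69 CPM in the other 7, and 13 of the 14 listed genes were in the tables. Suprabasal markers summed to 2353, 91.4 and 53.7 CPM, with 9.38 to 15.5 CPM elsewhere. Within that list Krt1 and Krt77, keratins of the interfollicular epidermis, had 3116 and 4093 reads in Fes KO 2 and 0 in both Fes WT 3 and Fes WT 5. Fes KO 2 thus held hair follicle and interfollicular transcripts, and Fes WT 3 mainly those of hair. Fes WT 5 had raised basal markers and almost no hair shaft or inner root sheath keratins. Within the suprabasal list it exceeded the other 7 only for the desmosome genes Dsp and Perp, at 25.1 and 17.3 CPM. No keratin of that list was raised there, and Krt10, at 6 CPM, lay within the 4.95 to 8.67 CPM of the other 7. The stress keratins of Fes WT 5 also summed to 73.3 CPM, against at most 3.59 CPM in the other 7.

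The members were therefore set against Fes KO 2 one by one, as the level in a tumour in percent of that in Fes KO 2, with exact 95% intervals that cover counting error only and compare single libraries. In Fes WT 3 the 13 hair keratins lay between 3.14% and 13.9% of Fes KO 2, with a median of 8.11%. Ivl at 8.82% (6.71 to 11.4), Sprr1b at 8.64% (4.37 to 15.5), Calml3 at 6.52% (5.1 to 8.22), Sprr1a at 4.61% (4.11 to 5.15) and Lgals7 at 3.57% (3.1 to 4.09) fell in the range of the hair genes. That range is not particular to hair. The 13 crosslinking and scaffold genes described below lay between 1.17% and 13.1% in Fes WT 3, with a median of 4.27%. Lor at 0.354% (0.0962 to 0.908), Flg2 at 0.33% (0.00832 to 1.85) and Lce1m at 0.458% (0.0115 to 2.58) lay below it, and so did Krtdap at 0.816% (0.327 to 1.69). Krt1 with 0 reads in Fes WT 3 allows at most 0.105%. Sbsn, present in every tumour, stood at 5.72% (4.55 to 7.1), and Lce1a2 rested on 2 reads, at 2.84% (0.338 to 10.6). The members thus did not share one ratio between Fes WT 3 and Fes KO 2, and intervals of Ivl and Lor are far apart.

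In Fes WT 5 the order was another. Krt5 stood at 4.87% of Fes KO 2 (4.57 to 5.2) and Krt14 at 5.19% (4.82 to 5.57), Krt15 stood at 9.43% (8.32 to 10.7), and Krt71 stood at 0.00366% (0.000443 to 0.0132). Lgals7 at 3.37% (2.89 to 3.92), Calml3 at 2.6% (1.69 to 3.83) and Krtdap at 2.31% (1.34 to 3.72) lay below these basal keratins and far above Krt71. Flg, at 2.73%, rested on 5 reads (0.877 to 6.46). Sprr1a at 0.0831% (0.027 to 0.194), Ivl at 0.163% (0.00413 to 0.912) and Lor at 0.206% (0.0249 to 0.746) lay far below them. The intervals of Sprr1a in Fes WT 3 and Fes WT 5 are far apart, whereas those of Lgals7 overlap.

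**Figure D3:**
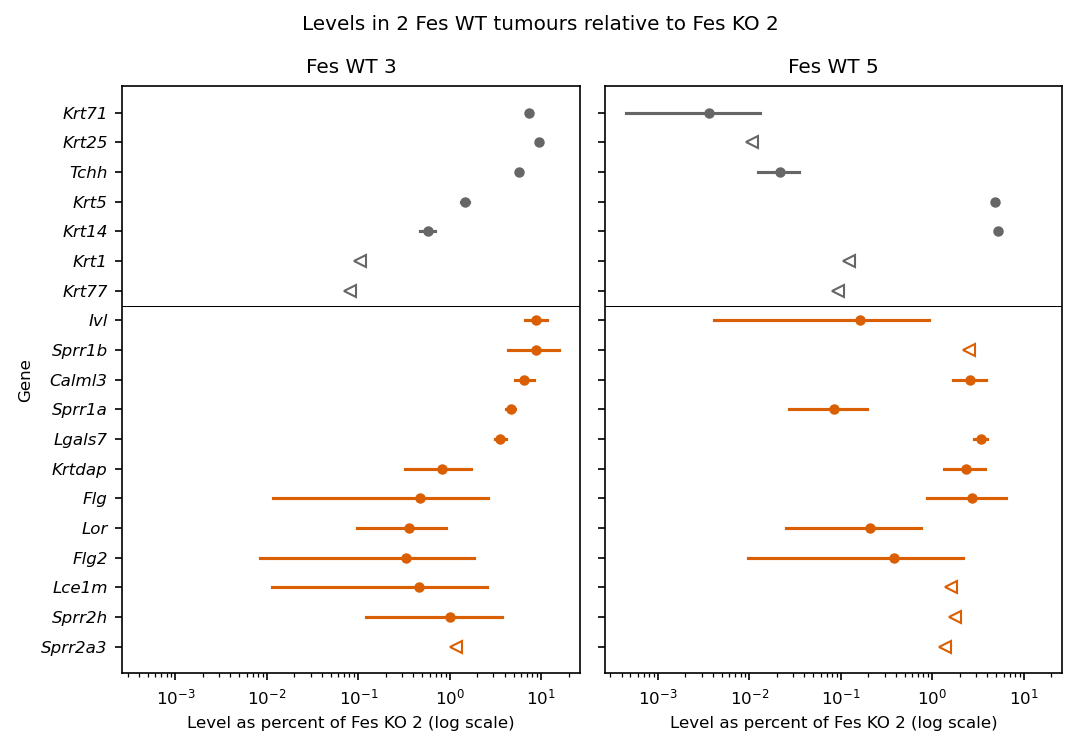
Level in Fes WT 3 (left) and Fes WT 5 (right) as percent of the level in Fes KO 2, on a log axis, for 7 reference genes (grey) and 12 cornified envelope genes (orange). Bars are exact 95% intervals and open triangles the upper limit at 0 reads; Ivl and Sprr1a lie beside the hair genes at left and fall to 0.163% and 0.0831% at right.

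The level of each member per exon length was compared within Fes KO 2, on the scale of CPM per kb of exon. Sprr1a was highest at 567, followed by Lgals7 at 425, Krtdap at 82.3, Sprr4 at 61.3, Calml3 at 53.5 and Lor at 41.4. Sbsn followed at 27, Ivl at 24.2, Sprr2h at 17.1 and Lce1m at 15. The very long genes Flg2 and Flg came to 0.95 and 0.74, ranks 24 and 25 of 47. Sprr1a and Lgals7 thus stood well above Lor, known as a major mass component of the mouse envelope. These are RNA levels of a bulk library and do not measure the protein make-up of the envelope. In Fes WT 3 the leading members per length were again Sprr1a at 26.1 and Lgals7 at 15.2, and in Fes WT 5 they were Lgals7 at 14.3 and Krtdap at 1.9. The Sprr4 model is only 231 bases long, and exon models without untranslated ends raise a level per length.

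**Figure D4:**
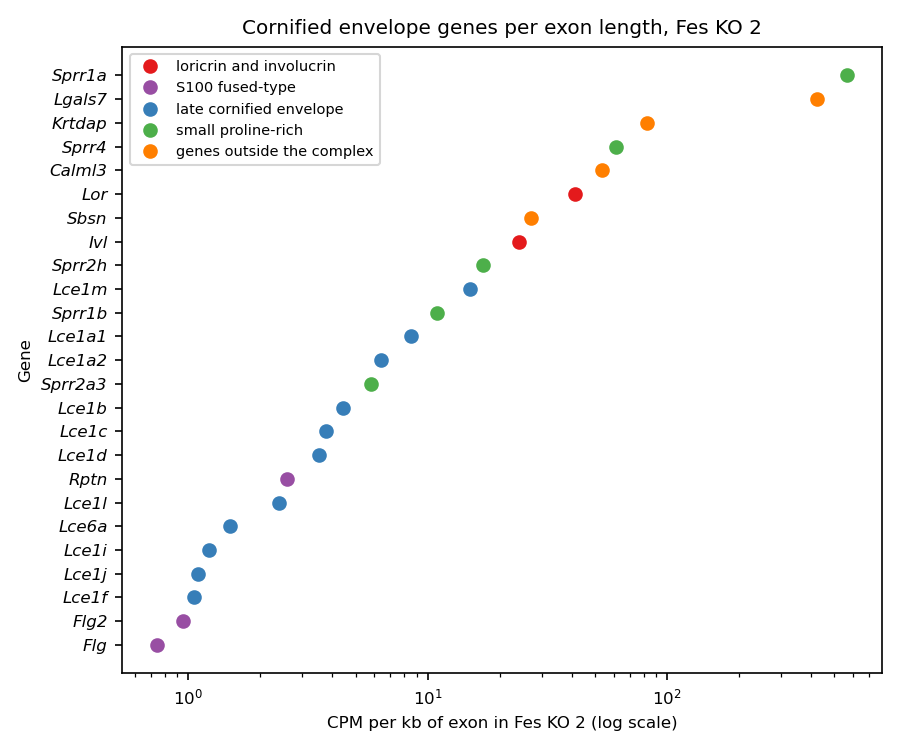
CPM per kb of exon in Fes KO 2, on a log axis, for the 25 highest of 47 cornified envelope genes, coloured by family. Sprr1a at 567 and Lgals7 at 425 stand apart from Krtdap at 82.3 and the rest.

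Genes that act with the envelope were also highest in Fes KO 2, but they differed in the other tumours. Of 13 crosslinking and scaffold genes, 6 passed the filter and 0 were called in either direction in edgeR, with 1 at an unadjusted p below 0.05, beside 0.175% of all genes called and 9.62% at that p. All 13 were highest in Fes KO 2. Tgm3, a transglutaminase of hair and epidermis, had 562 reads there, 67 in Fes WT 3 and 1 in Fes WT 5. Tgm1, the membrane-bound transglutaminase of the epidermis, had 977, 84 and 144, and also 126 in Fes KO 4 and 11 to 56 in the other 6. Cst6, a protease inhibitor of the epidermis, was at 228 CPM in Fes KO 2, 2.67 in Fes WT 3, 13.1 in Fes WT 5 and 0.13 to 7.13 CPM elsewhere. The desmosome genes Dsp, Perp and Pkp1 were at 822, 695 and 409 CPM in Fes KO 2 and at no more than 0.818, 5.39 and 0.378 CPM in the 7 keratinocyte-poor tumours. Tgm3, like Ivl and Sprr1a, was next highest in Fes WT 3, while Tgm1 and Cst6 were next highest in Fes WT 5.

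Of 11 further genes of the epidermal differentiation complex, 1 passed the filter and 0 were called in edgeR, beside 0.175% of all genes. At an unadjusted p below 0.05 there were 0, beside 9.62%. The only gene tested was Tchh, with a log2 fold change of 4.17 and SE 2.95, so the count says little about the list. Tchh, the trichohyalin of the inner root sheath, was at 5654 CPM in Fes KO 2, 324 in Fes WT 3 and 1.22 in Fes WT 5. Prr9 was at 1142, 48.8 and 0 CPM and Crnn, cornulin, at 273, 14.3 and 0.076 CPM. Within the complex Tchh alone had 94990 reads in Fes KO 2, more than all 53 member identifiers together. Hrnr, a relative of filaggrin, had 220 reads in Fes KO 2 and 1 in Fes WT 3, or 0.498% (95% interval 0.0125 to 2.8). That interval covers the ratio of Lor and also that of Krtdap, at 0.354% and 0.816%.

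Among 13 epidermal proteases and inhibitors 7 passed the filter and 0 were called, beside 0.175% of all genes, with 2 at an unadjusted p below 0.05, beside 9.62%. Klk7, which cleaves the links between dead cells, was at 150 CPM in Fes KO 2 and 2.22 to 5.29 CPM in the 7 keratinocyte-poor tumours. Klk8 went the other way, at 57.1 CPM in Fes KO 2 and 82.5 to 182 CPM in those 7, and Klk10 was at 35.5 and 3.72 to 30.8 CPM. Of 11 barrier lipid genes 3 passed the filter and 0 were called, beside 0.175% of all genes, with 0 at an unadjusted p below 0.05 in edgeR, beside 9.62%. Among them were Smpd1 and Abhd5, which are used by most cells and had log2 fold changes of 0.18 and 0.09. They do not stand for the list, which summed to 405 CPM in Fes KO 2 and 149 to 181 CPM in the 7 keratinocyte-poor tumours. Of its 11 genes, 9 were highest in Fes KO 2.

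Of 12 transcription factors of epidermal differentiation, 8 passed the filter and 0 were called, beside 0.175% of all genes, with 2 at an unadjusted p below 0.05, beside 9.62%. Maf and Klf4, which other cells of a tumour also use, were at 61.1 to 134 and 14.9 to 121 CPM in the 7 keratinocyte-poor tumours and at 149 and 129 CPM in Fes KO 2. The epithelial factors Grhl3 and Zfp750 had 229 and 1519 reads in Fes KO 2, 20 and 78 in Fes WT 3 and 0 and 9 in Fes WT 5. The stress keratins Krt17, Krt6a and Krt16 were at 1132, 334 and 75 CPM in Fes KO 2, at 30, 3 and 0.652 CPM in Fes WT 3 and at 55.9, 16.1 and 1.06 CPM in Fes WT 5. Sebaceous gland genes summed to 106 CPM in Fes KO 2 and 4.76 and 4.03 CPM in Fes WT 3 and Fes WT 5, within the 2.93 to 6.07 CPM of the other 7. The 5 genes of the mucosal list summed to 46.4 CPM in Fes KO 2, 5.73 in Fes WT 3, 0.456 in Fes WT 5 and at most 0.89 CPM in the other 7. Krt84 and Krt36 made up most of the sum in both Fes KO 2 and Fes WT 3. They had 448 and 305 reads in Fes KO 2, 32 and 50 in Fes WT 3 and 0 in Fes WT 5, where hair keratins were also almost absent. Krt4 had 26 reads in Fes KO 2, Krt13 had at most 5 in any tumour and Krt76 had 0 in all. The sum is thus no measure of mucosal epithelium. Across these 5 pathway lists no gene passed the threshold, and the part of keratinocyte content in the levels was not tested.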

How the data were processed

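For 10 tumours the authors deposited raw counts per gene, and log2 values for the same genes in a second file. Per the submitters' processing notes the tools were STAR 2.51b, Subread 1.4.6 and FastQC, and the build GRCm38 (mm10), without settings. Each deposited log2 value equals log2(count divided by a median-of-ratios size factor plus 1), to within 5e-11. Counts were tested with edgeR version 4.0.16 (R version 4.3.3): TMM, filterByExpr with the group, quasi-likelihood fit, 2-sided, Benjamini-Hochberg over all genes tested, called at an adjusted p below 0.05. DESeq2 version 1.42.0 and limma version 3.58.1 were alternatives. On simulated counts of 14816 genes for Fes KO against Fes WT, 87.5% of genes changed 4-fold were recovered, and 80% of them with 28496 unfiltered genes. In both runs the changed genes were drawn only from those with a mean above 2 CPM. Most members had a lower mean, so these shares do not describe the tests of members with few reads. CPM were scaled by TMM-adjusted totals. Tumour-to-tumour ratios have exact 95% binomial intervals (scipy version 1.17.1), for genes with at least 50 reads in Fes KO 2. A count of 0 was given a limit of 3 reads per library. Such intervals and limits cover counting error only, as reads are not independent molecules. Positions and exon lengths are from GENCODE M21 (GRCm38), which holds 47224 of 47643 identifiers. Promoters are from RefSeq (GRCm38.p6).

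The members and lists were chosen with earlier results of these data known. Named are the 9 members given by symbol, the 6 Lce and 6 Sprr genes with the highest mean CPM, any called member, and the 3 members with the smallest share in 1 tumour. From each further list up to 3 genes were taken, called ones first and then by mean CPM; Fes was added as a check. Some items, among them part of the genotype that both groups share, are not reported here. Other genes (Krt1, Krt77, Krt15, Krt84, Krt36, Dct, Tyrp1, Tyr, Mlana, Cst6, Tgm1, Tgm3, Hrnr, Grhl3, Zfp750, Krt76, Krt13, Sprr3, Sprr2g, Lce3b, Lce3d, Sprr2e and Lce1h) were named after their values were seen. Groups and replicate numbers are from the sample titles. Tumours of a group differed beyond sampling noise (chi-square per degree of freedom of at least 21.2), and each counted as 1 replicate. The replicate numbers do not pair the tumours: correlations of same-numbered tumours were 0.17, -0.38, -0.21, -0.11 and 0.14.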

Additional observations from a re-analysis of the deposited data

Results flagged for a closer look

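In groups of 5 tumours, a tumour was singled out where its gap to the nearest other exceeded 0.71 of the group's range (Dixon's 95% value), which chance does for about 1 in 20 groups of continuous, normally distributed values. Among 22 values examined this held for 21 in Fes KO, in each case Fes KO 2. There the summed members stood at 1341 CPM. Sprr1a was at 457, Lgals7 at 394, Sbsn at 98, Calml3 at 76, Lor at 73.7, Krtdap at 55.9 and Ivl at 46.5 CPM. Flg2 was at 19.8, Sprr2a3 at 16.7, Lce1m and Sprr4 at 14.2 each, Flg at 13.9, Sprr2h at 12.9, Rptn at 10.8 and Sprr1b at 9.05 CPM. Lce1a1 was at 6.01, Lce1a2 at 4.58, Lce1b at 2.86, Lce1c at 2.74 and Lce1d at 2.38 CPM. In Fes WT it held for 8, of which 7 were Fes WT 3: Sprr1a at 21, Ivl at 4.11, Sprr1b at 0.782, Sprr2h and Lce1a2 at 0.13 each, and Lce1m and Lce1a1 at 0.0652 CPM each. The last 4 rest on 1 or 2 reads. The eighth was Sprr4 in Fes WT 5 at 0.152 CPM, from 2 reads. Where a gene has reads in 1 tumour of a group only, as in these 5, Sprr1b in Fes WT and several genes in Fes KO, the gap equals the whole range by construction, and the chance value does not apply. These values share their libraries and are not independent of each other.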

How the results depend on the processing

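No member was called under any alternative, including an adjusted p below 0.1, the replicate block and each tumour left out. DESeq2 gave no adjusted p for any member, with or without the filter, so it could call none. The median log2 fold change of tested members, which is Sbsn alone after filtering (2 members without Fes KO replicate 4 or 5), was 2.21. It was -0.31 with limma-voom, 0.44 with limma on the deposited log2 values, 0.23 with the replicate block and 0.05 with keratinocyte markers as a covariate; the cause was not tested. With 1 tumour left out it ran from -0.50 (without Fes KO replicate 2) to 3.37. With no filter it was 3.61, and with 1 tumour left out as well it ran from -0.50 to 4.34, with 3.92, 3.84, 3.92 and 3.88 without Fes KO replicates 1, 3, 4 and 5. Sbsn itself ran from -0.50 to 2.51 with 1 tumour left out, and with no filter was -0.49 both without Fes KO 2 and without Fes KO 2, Fes WT 3 and Fes WT 5. Over all settings 0.0177% to 1.82% of genes were called. The settings with no filter and tumours left out, and DESeq2 with no filter, were chosen after seeing the data. The log2 ratio of median summed CPM, -0.18, lay between -1.22 and -0.10 with 1 tumour left out. The replicate block called 4 genes over all genes against 26, and 1 of 10 tumours correlated best with its own number. The Lce3 genes and most Sprr2 genes had only a few reads in any tumour, so differences among them were not detectable at this depth.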
